A study of Mus musculus with 8 samples.

Results

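The genes described here are 4 tissue inhibitors of metalloproteinases (Timp1, Timp2, Timp3 and Timp4), the plasminogen activators Plau and Plat, the receptor Plaur and the serpins Serpine2 and Serpinb5. They were taken by name from a table of counts per gene, so the choice rests on what the genes encode: 9 of the 52308 genes in the table. Polyadenylated RNA of the uterus was sequenced from female mice of the outbred ICR stock, aged 6 to 8 weeks and with no genetic change or treatment named in the labels. The mice were assigned to proestrus, estrus, metestrus or diestrus from the cells of a vaginal smear, with 2 libraries per stage and 8 in total. The title of the series sets these stages in the frame of estrogen action on another gene, Fam3d, and the comparison that the design offers is between stages. The labels do not say whether the libraries of a stage stem from different animals. Every p-value therefore rests on the spread between these samples alone, and that spread may be technical.

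The extracellular matrix of the uterus is taken apart and rebuilt as ovarian hormones rise and fall, and secreted proteases do much of this work. Plau (urokinase) and Plat (tissue plasminogen activator) cleave plasminogen into plasmin, which degrades fibrin and matrix proteins and can activate metalloproteinases. Plaur holds urokinase at the cell surface, and serpins such as Serpine2 trap the activators in inactive complexes. Timps bind the active site of metalloproteinases and so act one step further down.

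For 7 of the 9 genes, all but Plau and Plat, RefSeq gave a window of 250 bases before and 50 after the transcription start (build GRCm38.p6). The 250 bases before the start are printed for the 5 of these 7 genes that changed between at least 1 pair of stages. Plau and Plat changed between stages too, but without a window their motifs were not searched. Each sequence runs 5′ to 3′ on the strand of its gene, and capitals mark matches to the motifs searched. The windows lie at chr1:106860925-106861174 on the plus strand for Serpinb5, chr1:79858666-79858915 on the minus strand for Serpine2 and chrX:20869916-20870165 on the plus strand for Timp1. Those of Timp2 and Timp3 lie at chr11:118355412-118355661 on the minus strand and chr10:86300162-86300411 on the plus strand.
Serpinb5: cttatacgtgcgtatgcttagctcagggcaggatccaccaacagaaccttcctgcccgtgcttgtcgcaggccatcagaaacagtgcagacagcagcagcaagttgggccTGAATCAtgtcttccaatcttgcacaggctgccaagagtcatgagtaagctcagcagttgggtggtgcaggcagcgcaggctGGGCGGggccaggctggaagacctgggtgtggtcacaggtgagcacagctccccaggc
Serpine2: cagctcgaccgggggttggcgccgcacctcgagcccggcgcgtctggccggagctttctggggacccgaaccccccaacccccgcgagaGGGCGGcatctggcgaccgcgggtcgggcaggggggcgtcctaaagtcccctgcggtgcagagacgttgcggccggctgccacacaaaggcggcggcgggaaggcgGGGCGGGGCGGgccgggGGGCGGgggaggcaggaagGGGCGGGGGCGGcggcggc
Timp1: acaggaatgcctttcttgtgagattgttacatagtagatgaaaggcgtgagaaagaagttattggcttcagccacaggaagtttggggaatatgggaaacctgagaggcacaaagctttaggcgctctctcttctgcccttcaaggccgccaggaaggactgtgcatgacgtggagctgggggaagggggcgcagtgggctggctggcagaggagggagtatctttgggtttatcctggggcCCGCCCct
Timp2: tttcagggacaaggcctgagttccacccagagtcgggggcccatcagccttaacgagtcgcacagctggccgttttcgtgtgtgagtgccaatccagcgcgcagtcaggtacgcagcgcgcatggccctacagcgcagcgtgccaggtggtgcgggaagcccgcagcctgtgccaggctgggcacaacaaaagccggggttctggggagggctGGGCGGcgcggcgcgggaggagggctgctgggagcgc
Timp3: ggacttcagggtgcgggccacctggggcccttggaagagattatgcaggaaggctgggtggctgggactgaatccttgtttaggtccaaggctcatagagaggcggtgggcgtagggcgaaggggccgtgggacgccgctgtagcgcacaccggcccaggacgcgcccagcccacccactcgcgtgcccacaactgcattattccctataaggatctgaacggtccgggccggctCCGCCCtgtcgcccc

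The motifs were searched on both strands of the whole 300-base windows, and their matches are descriptions of sequence. The palindromic estrogen response element, GGTCA and TGACC with any 3 bases between them, had no match in the 7 windows, and 0.07% of the 32851 windows in the RefSeq table hold one. The AP-1 motif TGANTCA, found in 7.81% of all windows, had 1 match each in Serpinb5 and Plaur. The Sp1 motif GGGCGG, found in 35.7% of all windows, had 6 matches in Serpine2, 1 pair of which overlaps, 3 in Plaur, 1 pair of which overlaps, and 1 each in Serpinb5, Timp1 and Timp2. Timp3 had 2 Sp1 matches, of which 1 lies after the start. The TATA box TATAAA, found in 13.6% of all windows, had no match in the 7 windows. The window of Serpine2 was the richest in G and C (77.7%) and that of Timp4 the poorest (53.3%).

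Library totals lay between 17863546 and 21896786 counts. Of the 9 genes, 8 passed the filter on low counts, as did 18114 genes in all, and Timp4 did not. Levels are in CPM, counts scaled to a common library size with TMM (a correction for composition), and are given as mean ± SD over the 2 libraries of a stage (n = 2). Changes are log2 fold changes ± SE of an edgeR quasi-likelihood fit to all 8 libraries, with p adjusted over all tested genes, and 0.05 is the threshold. The uterine genes Hoxa10, Hoxa11, Esr1 and Pgr, chosen after the data were seen, summed to between 523 and 1210 CPM, so the tissue label has its markers in every library. Several marker lists moved with stage or library. The 12 simple epithelium markers summed to between 4262 and 6576 CPM in proestrus and estrus and to between 1036 and 1594 CPM in metestrus and diestrus. Diestrus library 1 stood apart, with 7751 CPM of 6 uterine gland markers against 53.6 to 248 CPM in every other library, and 20410 CPM of smooth muscle markers against 8678 to 12610 CPM. Prss29 (5509 CPM), Prss28 (2039 CPM) and Spink1 (153 CPM) made up nearly all of this gland sum. The other gland markers were lower there than in diestrus library 2, with Foxa2 at 14.3 against 17.35 CPM. Cxcl15 stood at 2.20 against 35.8 CPM and Aldh1a1 at 32.5 against 112 CPM. In bulk tissue, fewer cells of a type and less RNA per cell cannot be told apart.

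Over the cycle, 6 of the 8 tested genes changed, namely Timp1, Timp2, Timp3, Plau, Serpine2 and Serpinb5, and Plat and Plaur did not pass the test of the 4 stages together. Among all tested genes 39.1% changed. Serpinb5 and Plau were highest in proestrus and fell to metestrus, whereas Serpine2 and Timp3 were lowest in proestrus and higher in metestrus and diestrus. Timp1 was lowest and Timp2 highest in estrus. Per kilobase of exon (all exons of a gene merged), the scale used here to compare genes, Timp2 had the highest mean level over the 8 libraries (176 CPM per kilobase). Plau (28.8), Plat (24.8), Timp3 (19.6), Timp1 (17.2) and Serpine2 (13.0) followed, then Plaur (6.15), Serpinb5 (3.72) and Timp4 (0.0191).

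**Figure D1:**
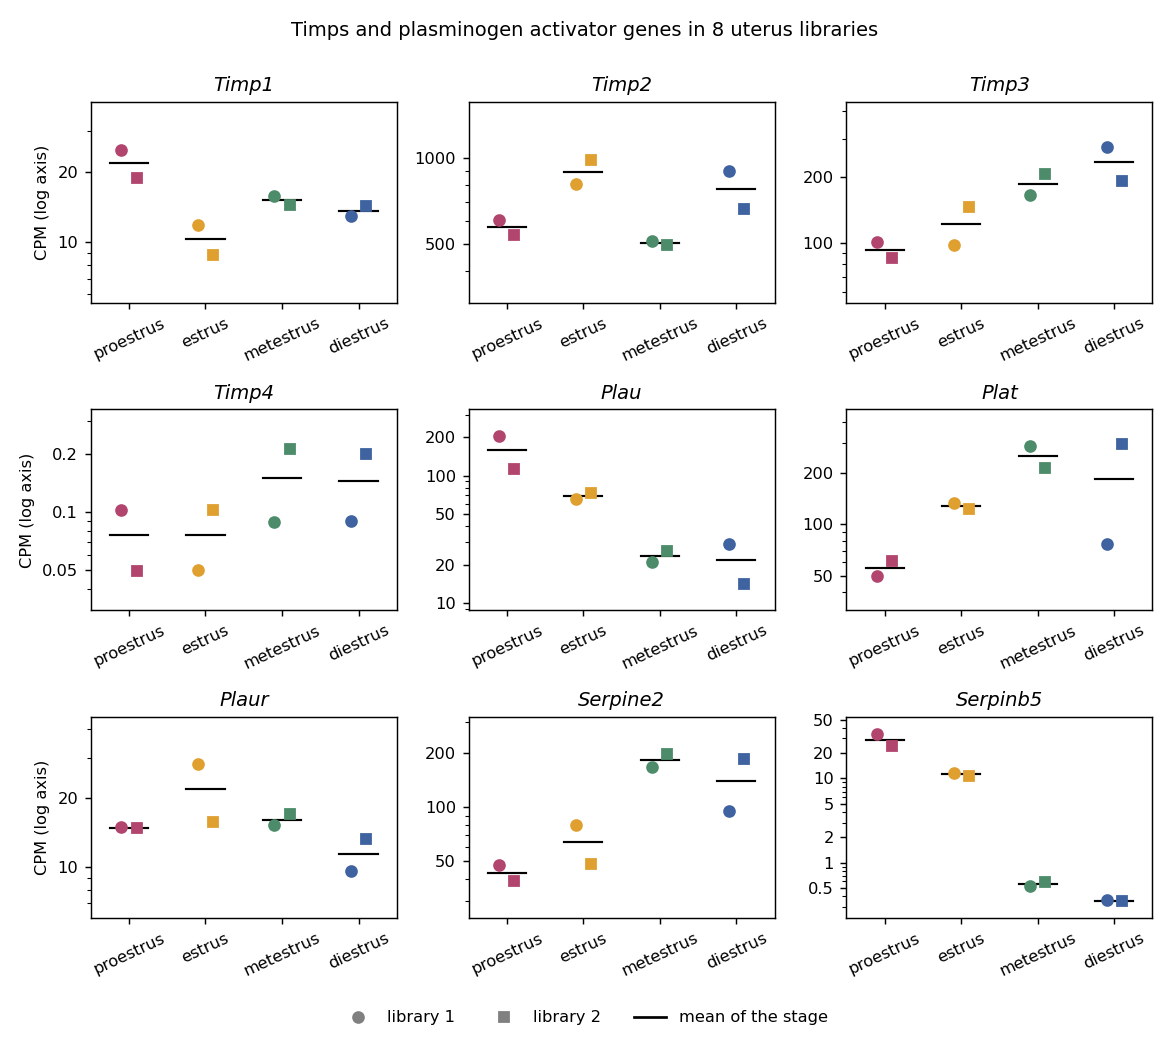
CPM of the 9 genes (log axis, a separate scale in each panel) in the 2 libraries of each stage, with circles for library 1, squares for library 2 and lines for the stage mean. Serpinb5 runs from 33.4 CPM in proestrus to 0.353 CPM in diestrus, and the diestrus libraries of Plat stand at 76.4 and 294 CPM.

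Timp1 fell from proestrus to estrus. It encodes a secreted inhibitor of most soluble metalloproteinases (ENSMUSG00000001131, protein coding, plus strand of chromosome X, 20870166 to 20874735, GRCm38). Proestrus libraries 1 and 2 held 24.9 and 18.8 CPM, and the estrus libraries held 11.9 and 8.83 CPM. Metestrus gave 15.8 and 14.5 CPM and diestrus 12.9 and 14.4 CPM. Both proestrus libraries thus lay above the other 6 and both estrus libraries below them, with no overlap between any 2 stages. The stage means were 21.9 ± 4.32, 10.4 ± 2.18, 15.1 ± 0.919 and 13.6 ± 1.03 CPM in the order of the cycle (adjusted p = 0.0331 across the stages). The fall from proestrus to estrus was -1.08 ± 0.22 on the log2 scale (adjusted p = 0.0240). Neighbours in the order of the means (proestrus, metestrus, diestrus, estrus) did not pass the test, with adjusted p of 0.133, 0.749 and 0.226. The fall no longer passed once a library of proestrus, estrus or metestrus was left out (adjusted p from 0.0547 to 0.117), and the change across the stages ended without proestrus library 1, either estrus library or either metestrus library (0.0589 to 0.1205). Timp1 lies inside the gene Syn1 on the opposite strand, which was counted at 0.546 to 2.01 CPM.

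Timp2 was high in estrus and fell to metestrus. It inhibits metalloproteinases and, with the membrane protease Mmp14, also takes part in activating Mmp2 (ENSMUSG00000017466, minus strand of chromosome 11, 118301069 to 118355740). The proestrus libraries held 603.7 and 535 CPM and the estrus libraries 807 and 982 CPM. Metestrus gave 511 and 496 CPM and diestrus 898 and 662 CPM. Estrus and diestrus overlapped, both lay above proestrus, and metestrus lay lowest without overlap. Means were 569.5 ± 48.3, 895 ± 124, 503.5 ± 11.1 and 779.9 ± 167 CPM (adjusted p = 0.0326 across the stages). The fall from estrus to metestrus was -0.83 ± 0.18 (adjusted p = 0.0157). The difference of 0.65 ± 0.18 between estrus and proestrus did not pass (adjusted p = 0.0583), although it did in DESeq2 (0.00926), without the filter on low counts (0.0427), with only the 4 libraries of the pair (0.0403) and without diestrus library 1 (0.0157) or 2 (0.0165). The estrus to metestrus call ended without estrus library 2 (0.0857) or metestrus library 1 (0.0848) or 2 (0.104), and the change across the stages when any 1 library outside diestrus was left out (0.0693 to 0.1225).

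Timp3 was lowest in proestrus and highest in diestrus. Its protein binds to the matrix and also inhibits ADAM and ADAMTS proteases (ENSMUSG00000020044, plus strand of chromosome 10, 86300372 to 86349506). Proestrus gave 101.5 and 85.6 CPM and estrus 98.5 and 146 CPM. Metestrus gave 166 and 208 CPM and diestrus 277 and 193 CPM. Proestrus overlapped estrus and metestrus overlapped diestrus, but all 4 libraries of metestrus and diestrus lay above all 4 of proestrus and estrus. The stage means were 93.5 ± 11.25, 122 ± 33.9, 187 ± 29.5 and 235 ± 59.05 CPM (adjusted p = 0.0236 across the stages). Proestrus was lower than diestrus (-1.33 ± 0.26, adjusted p = 0.0151). Metestrus was higher than proestrus by 1.00 ± 0.26 (adjusted p = 0.0429), and diestrus was higher than estrus by 0.94 ± 0.26 (adjusted p = 0.0404). The first call ended without either proestrus library (0.0722 and 0.0783) and with only the libraries of the pair (0.0510), and the second without any 1 library of proestrus or metestrus (0.110 to 0.197). The third ended without any 1 library except diestrus library 2 (0.0545 to 0.1755) and with only the libraries of the pair (0.104), and the change across the stages without any 1 library of proestrus or metestrus (0.0506 to 0.0753). Timp3 lies within Syn3 on the opposite strand, counted at 0.813 to 1.84 CPM.

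Timp4 was close to the limit of detection. The proestrus libraries had 2 and 1 counts, those of estrus 1 and 2, those of metestrus 2 and 5 and those of diestrus 2 and 4, which makes 19. That is between 0.0496 and 0.214 CPM, with overlap between all stages, and no difference was detectable at this depth. Timp4 (ENSMUSG00000030317, minus strand of chromosome 6, 115241892 to 115252205), a Timp best known from heart, lies within Syn2 on the opposite strand, which was counted at 2.32 to 25.6 CPM.

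Plau was high in proestrus, intermediate in estrus and low in metestrus and diestrus (ENSMUSG00000021822, plus strand of chromosome 14, 20836660 to 20843385). In proestrus the libraries held 206 and 112 CPM and in estrus 65.2 and 73.05 CPM. Metestrus gave 20.98 and 25.4 CPM and diestrus 29.2 and 14.0 CPM. Only metestrus and diestrus overlapped, and the 2 proestrus libraries differed from each other by more than the estrus libraries did. The means were 159 ± 66.2, 69.1 ± 5.53, 23.2 ± 3.13 and 21.6 ± 10.7 CPM (adjusted p = 0.00598 across the stages, under 0.05 in every alternative run). Proestrus was higher than diestrus by 2.88 ± 0.42 (adjusted p = 0.00571), and Plau fell from estrus to metestrus with a log2 change of -1.57 ± 0.40 (adjusted p = 0.0234). Metestrus was lower than proestrus (-2.78 ± 0.41, adjusted p = 0.00934) and diestrus lower than estrus (-1.68 ± 0.40, adjusted p = 0.0271). Estrus minus proestrus, at -1.20 ± 0.39, did not pass (adjusted p = 0.0831). It passed in DESeq2 (0.0127), without the filter (0.0250) and without diestrus library 1 (0.0226) or 2 (0.0228). The estrus to metestrus and estrus to diestrus calls ended without any 1 library of estrus or metestrus (0.0817 to 0.128 and 0.0538 to 0.1095), the metestrus to proestrus call ended without either metestrus library (0.0804 and 0.0836), and with only the libraries of the pair the diestrus calls ended at 0.0511 against proestrus and 0.0591 against estrus.

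Plat, the other activator, went the opposite way (ENSMUSG00000031538, plus strand of chromosome 8, 22757727 to 22782844). The proestrus libraries held 50.1 and 60.99 CPM and the estrus libraries 133 and 124 CPM. Metestrus gave 287 and 215 CPM, and diestrus gave 76.4 CPM in library 1 and 294 CPM in library 2. Proestrus lay below all other libraries, whereas the 2 diestrus libraries bracketed those of both estrus and metestrus. Means were 55.5 ± 7.71, 128 ± 6.34, 251 ± 50.7 and 185 ± 154 CPM, and Plat did not pass across the stages (adjusted p = 0.0738). It passed without diestrus library 1 (0.00107) or library 2 (0.00115), in DESeq2 (0.000911) and without the filter on low counts (0.0119). Metestrus was higher than proestrus by 2.17 ± 0.56 (adjusted p = 0.0440). This call ended when any 1 library outside diestrus was left out (0.0813 to 0.227).

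The diestrus values of Plat turned on which library was used. Proestrus minus diestrus was -1.74 ± 0.56 with both libraries, which did not pass (adjusted p = 0.0680; 0.00285 in DESeq2 and 0.0166 without the filter), and -2.42 without diestrus library 1 (adjusted p = 0.00115). Against metestrus, diestrus was lower without library 2 (-1.75, adjusted p = 0.00881). Against estrus it was higher without library 1 (1.23, adjusted p = 0.00800) and had a log2 change of -0.74 without library 2 (adjusted p = 0.0523). Diestrus library 1 is also the library with the high smooth muscle sum and the high gland sum, the latter mostly Prss29 and Prss28. The part of these markers in the level of Plat was not tested.

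Plaur, the urokinase receptor, had its highest mean in estrus but did not pass across the stages (adjusted p = 0.138; ENSMUSG00000046223, plus strand of chromosome 7, 24462484 to 24475968). In proestrus both libraries were alike, at 14.9 and 14.8 CPM, and estrus gave 28.1 and 15.8 CPM. Metestrus gave 15.2 and 17.03 CPM and diestrus 9.63 and 13.3 CPM. Estrus library 1 was well above the other 7, the estrus and metestrus libraries overlapped, and diestrus lay lowest without overlap. Means were 14.9 ± 0.0584, 21.9 ± 8.75, 16.1 ± 1.28 and 11.5 ± 2.61 CPM. The largest contrast, diestrus minus estrus, was -0.94 ± 0.30 (adjusted p = 0.0626), and it passed in DESeq2 (0.0261), without the filter (0.0389) and without estrus library 2 (0.0365).

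Serpine2 was low in proestrus and estrus and high in metestrus. It encodes protease nexin 1, an inhibitor of urokinase, tissue plasminogen activator and thrombin (ENSMUSG00000026249, minus strand of chromosome 1, 79794197 to 79861180). The proestrus libraries held 47.4 and 38.7 CPM and the estrus libraries 79.99 and 48.1 CPM. Metestrus gave 168 and 199 CPM and diestrus 94.96 and 185 CPM. Proestrus and estrus did not overlap each other or the later stages, while metestrus and diestrus overlapped. The means were 43.0 ± 6.20, 64.0 ± 22.6, 183.5 ± 21.4 and 140.2 ± 64.0 CPM (adjusted p = 0.0151 across the stages). The rise from estrus to metestrus was 1.52 ± 0.36 (adjusted p = 0.0196), and metestrus was higher than proestrus by 2.09 ± 0.37 (adjusted p = 0.0154). Proestrus was lower than diestrus (-1.70 ± 0.37, adjusted p = 0.0206). The rise ended without estrus library 2 or metestrus library 1 or 2 (0.0626 to 0.100), and the metestrus to proestrus call without any 1 library of either stage (0.0722 to 0.0964). The diestrus call ended without proestrus library 1 (0.0959) or 2 (0.103) and with only the libraries of the pair (0.0687), and the change across the stages without proestrus library 2 (0.0534) or metestrus library 2 (0.0599).

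Serpinb5 had the widest range of the 8 tested genes. It encodes maspin, an epithelial clade B serpin that does not act as a classical protease inhibitor (ENSMUSG00000067006, plus strand of chromosome 1, 106861173 to 106883348). The proestrus libraries held 33.4 and 24.0 CPM (651 and 484 counts) and the estrus libraries 11.7 and 10.8 CPM (233 and 210 counts). Metestrus gave 0.536 and 0.599 CPM (12 and 14 counts) and diestrus 0.360 and 0.353 CPM (8 and 7 counts). Each stage lay below the one before it, from proestrus to diestrus, with no overlap. Means were 28.7 ± 6.62, 11.25 ± 0.576, 0.567 ± 0.0447 and 0.356 ± 0.00485 CPM (adjusted p = 0.000536 across the stages). Serpinb5 was lower in estrus than in proestrus (-1.35 ± 0.21, adjusted p = 0.0117) and lower again in metestrus (-4.29 ± 0.25, adjusted p = 0.000821). Proestrus was higher than diestrus by 6.31 ± 0.28 (adjusted p = 0.000422), a 79.2-fold difference. Metestrus was lower than proestrus (-5.64 ± 0.26, adjusted p = 0.000887) and diestrus lower than estrus (-4.96 ± 0.27, adjusted p = 0.000649). Metestrus and diestrus did not pass against each other (adjusted p = 0.415). The fall from proestrus to estrus ended without proestrus library 1 or either estrus library (0.0592 to 0.0794), and the other calls held in every alternative run.

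Summed epithelial markers were higher in proestrus and estrus than in the later stages, like Serpinb5 and Plau, but single markers differed. The 12 simple epithelium markers summed to 6576 and 5352 CPM in proestrus, 5017 and 4262 CPM in estrus, 1594 and 1467 CPM in metestrus and 1036 and 1520 CPM in diestrus, and none was at 0 in any library. Of the 12, edgeR called 8 lower in metestrus than in estrus, against 19.5% of all tested genes, and the 8 became 5 without estrus library 1 and 5 and 4 without metestrus library 1 and 2. Per 1000 CPM of this sum, Serpinb5 stood at 5.08 and 4.49 CPM in proestrus, 2.32 and 2.54 CPM in estrus, 0.336 and 0.408 CPM in metestrus and 0.347 and 0.232 CPM in diestrus. The order of the stages was thus kept after this division, except that diestrus then overlapped metestrus. Plau per 1000 CPM of the sum was 31.3 and 20.98 CPM in proestrus, 13.0 and 17.1 CPM in estrus, 13.2 and 17.3 CPM in metestrus and 28.1 and 9.22 CPM in diestrus. Estrus and metestrus then overlapped, and diestrus spanned both of them and part of proestrus. Of the 12 simple epithelium markers, edgeR called 1 higher and 0 lower in estrus than in proestrus. Cldn4 had a mean of 27.3 CPM in proestrus and 136.6 CPM in estrus. Wnt7a had its highest mean in metestrus, at 47.1 CPM against 31.4 CPM in proestrus. Across the stages 10 of the 12 passed, and Cldn3 and Ehf did not (adjusted p = 0.108 and 0.240). Cldn3 was highest in diestrus library 2, at 260.8 CPM. The 12 stratified epithelium markers summed to 128 to 165 CPM in proestrus, 20.3 to 38.8 CPM in estrus and 10.1 to 13.5 CPM in metestrus and diestrus. Sprr1a alone gave 142 and 106 CPM in proestrus. Krt4 went the other way, from 0.205 and 0.0496 CPM in proestrus to 0.540 to 0.984 CPM in metestrus and diestrus (adjusted p = 0.0188 across the stages). Krt1 and Krt10 did not pass across the stages (0.531 and 0.218). Of the 12 markers, Krt6a was at 0 in all libraries of metestrus and diestrus, Krt14 in estrus library 2 and both diestrus libraries, and Krt5 in diestrus library 1. Krt4 and Ivl were at 0 in estrus library 2, and Dsc3 in estrus library 1 and diestrus library 2. The part of the epithelial markers in the levels of Serpinb5 and Plau was not tested.

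**Figure D2:**
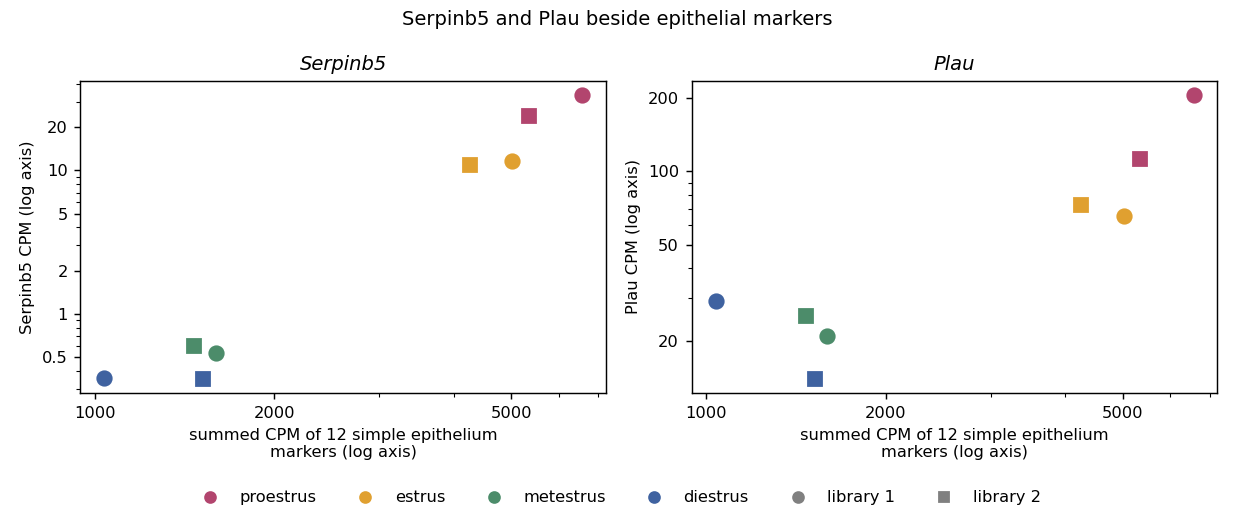
CPM of Serpinb5 and Plau against the summed CPM of 12 simple epithelium markers, 1 point per library, both axes on log scales. The 4 libraries of metestrus and diestrus have sums of 1036 to 1594 CPM, and Serpinb5 lies between 0.353 and 0.599 CPM there.

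Between the 2 activators the balance shifted over the cycle. Per kilobase, Plau made up 91.6% and 82.9% of the summed level of Plau and Plat in the proestrus libraries and 56.4% and 60.9% in the estrus libraries. Its share was 16.2% and 23.8% in metestrus, and 50.2% and 11.2% in diestrus libraries 1 and 2. On this scale Plau led in all 4 libraries of proestrus and estrus and Plat led in both of metestrus. The estrus lead rests on the division by exon length, 2367 bases for Plau and 6241 for Plat. In CPM, Plat stood above Plau in estrus, at 133 and 124 against 65.2 and 73.05. In diestrus library 1 the activators were level per kilobase, at 12.3 for Plau and 12.2 for Plat, but not in CPM (29.2 and 76.4). In library 2 they stood at 5.92 and 47.1 CPM per kilobase.

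Among the Timps, Timp2 held most of the message. Summed per kilobase, the 4 Timps reached 196 and 169 CPM per kilobase in proestrus and 233 and 280 in estrus. Metestrus gave sums of 169.4 and 169.0, and diestrus sums of 279 and 210. Timp2 supplied 75.3% to 90.03% of this sum, Timp3 5.20% to 15.1% and Timp1 3.55% to 14.4%. The 21 Mmp genes counted here, which encode enzymes that Timps inhibit, summed to 264 and 249.8 CPM per kilobase in proestrus and to 889 and 1008 in estrus. They then gave 309.9 and 282 in metestrus and 450.3 and 455 in diestrus. The ratio of the Timp sum to the Mmp sum was therefore 0.741 and 0.677 for the proestrus libraries, 0.262 and 0.278 for estrus, 0.547 and 0.599 for metestrus and 0.6196 and 0.461 for diestrus. Estrus lay lowest without overlap, proestrus lay highest without overlap, and diestrus spanned metestrus. Mmp11 alone made up 46.3% and 49.2% of the Mmp sum in estrus, where the Timp sum overlapped that of diestrus. Mmp11 stood at 411 and 496 CPM per kilobase in estrus and at 8.61 to 19.4 in the other libraries. With Mmp11 left out of the Mmp sum, the estrus ratios no longer lay below all others.

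**Figure D3:**
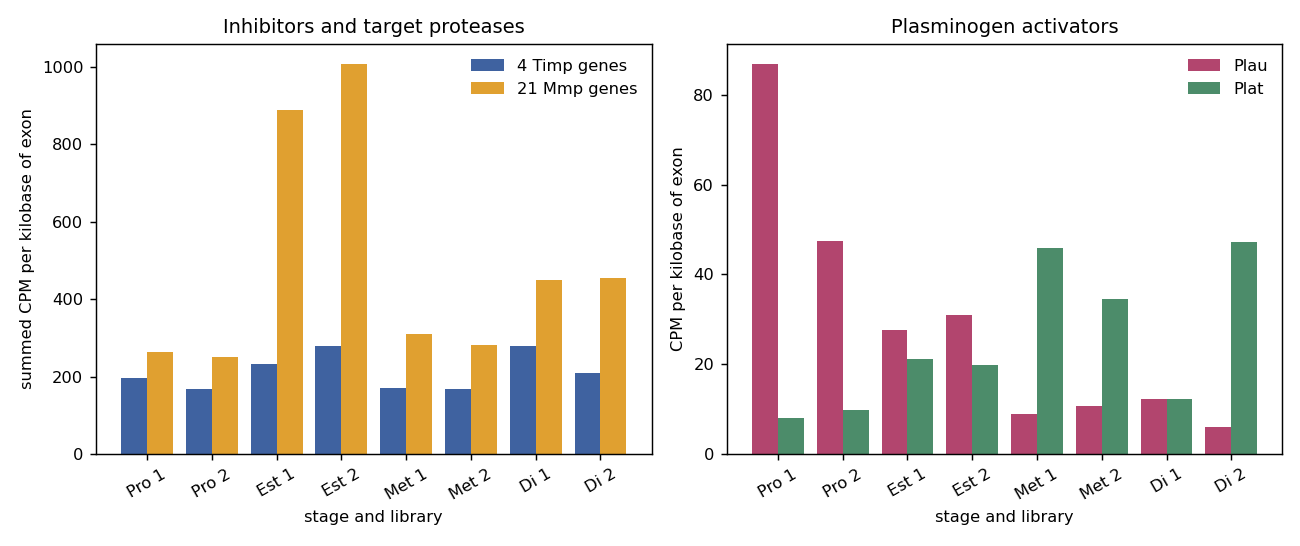
Level per kilobase of exon (CPM per kilobase, bars from 0) in each library, for the summed 4 Timp and 21 Mmp genes and for Plau and Plat. The Mmp sum reaches 889 and 1008 in estrus against 249.8 to 455 elsewhere, and Plat exceeds Plau in both metestrus libraries.

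Immune and stromal markers moved in estrus beside Timp1, Timp2, the Mmp sum and the Timp to Mmp ratio. The 10 macrophage markers summed to 1777 and 2119 CPM in estrus and to 576 to 1000 CPM in the other libraries, and none was at 0. Of these, 7 were higher in estrus than in proestrus (8.12% of all tested genes), which became 2 and 3 when proestrus library 2 or estrus library 2 was left out, and 9 were lower in metestrus than in estrus (19.5%). The 10 neutrophil markers, of which Mmp8 is itself a metalloproteinase, summed to 118 and 138 CPM in estrus. Their sum was 17.0 to 62.3 CPM in the other libraries. Ngp was at 0 in both estrus libraries and Camp at 0 in estrus library 1. Retnlg alone gave 75.33 and 110.1 CPM in estrus, and Csf3r gave 22.56 and 20.49 CPM. Ly6g went the other way, from 6.512 and 5.112 CPM in proestrus to 1.451 and 1.497 CPM in estrus. Of the 7 neutrophil markers tested, edgeR called 1 higher and 1 lower in estrus than in proestrus. The 10 stromal fibroblast markers, none at 0, summed to 14420 and 9653 CPM in estrus, below the 15390 to 25670 CPM of the other libraries. Col1a1, Col1a2 and Col3a1 made up most of these sums. Of the 10, edgeR called 4 lower in estrus than in proestrus (6.94% of all tested genes) and 1 higher (8.12%). These stromal calls changed with the library left out. Mean CPM was higher in estrus for Pdgfra (431 against 262), Pdgfrb (271 against 160), Dpt (409 against 329) and Dcn (2654 against 2483). It was lower for the other markers of the list. The part of these cell types in the levels of the Timps and Mmps was not tested.

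The comparison of estrus with proestrus asks what differs after the rise of estrogen in proestrus. Of the 8 tested genes, 2 were lower in estrus (Timp1 and Serpinb5), against 6.94% of all tested genes, and edgeR called 0 higher, against 8.12%. At an unadjusted p under 0.05 1 was higher, as by DESeq2, and by limma-voom 0 were. The differences of Plat (1.21 ± 0.55, adjusted p = 0.178), Serpine2 (0.57 ± 0.36, 0.309), Plaur (0.56 ± 0.29, 0.233) and Timp3 (0.39 ± 0.25, 0.329) did not pass. Plat passed with only the 4 libraries of the pair (0.0108) and without diestrus library 1 (0.00618) or 2 (0.00625).

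From estrus to metestrus more of the genes moved, as did more genes in all. Timp2, Plau and Serpinb5 fell, 3 of 8 against 19.5% of all tested genes, and Serpine2 rose, 1 of 8 against 16.7%. Timp1 (0.54 ± 0.22, adjusted p = 0.0914), Timp3 (0.61 ± 0.25, 0.105) and Plat (0.97 ± 0.54, 0.206) did not pass. Timp3 passed without diestrus library 1 (0.0480) or 2 (0.0477), and Plat passed without either of them (0.00480 and 0.00478) and with the libraries of the pair alone (0.00503).

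Between metestrus and diestrus none of the 8 genes passed in edgeR, in either direction, and 0.508% of all tested genes changed (0.282% higher and 0.226% lower in diestrus). Timp2, with a difference of 0.63 ± 0.18, had an unadjusted p of 0.0117 (adjusted p = 0.180), the only 1 of the 8 with an unadjusted p under 0.05. DESeq2 called it higher (0.0333), as did edgeR without diestrus library 2 (0.0271), and limma-voom called 0 genes. No gene of the 8 was called lower by DESeq2 or limma-voom either.

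When the cycle turns from diestrus to proestrus, Plau and Serpinb5 rose, 2 of 8 against 12% of all tested genes, and Timp3 and Serpine2 fell, 2 of 8 against 10.4%. Timp1, higher in proestrus by 0.68 ± 0.21, did not pass (adjusted p = 0.0653; 0.0423 in DESeq2), nor did Timp2 (-0.45, 0.124; 0.0270 without diestrus library 2). Of the comparisons between opposite stages, metestrus against proestrus gave 3 genes higher (Timp3, Plat and Serpine2), with 6.68% of all tested genes higher, and 2 lower (Plau and Serpinb5), with 10.3% lower. Diestrus against estrus gave 1 higher (Timp3), with 9.97% of all tested genes higher, and 2 lower (Plau and Serpinb5), with 13.9% lower. Serpine2, higher in diestrus than in estrus by 1.13 ± 0.36, did not pass (adjusted p = 0.0636), and passed in DESeq2 (0.00842), without the filter (0.0173) and without diestrus library 1 (0.0106). These comparisons share libraries with each other, so their calls are not independent.

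**Figure D4:**
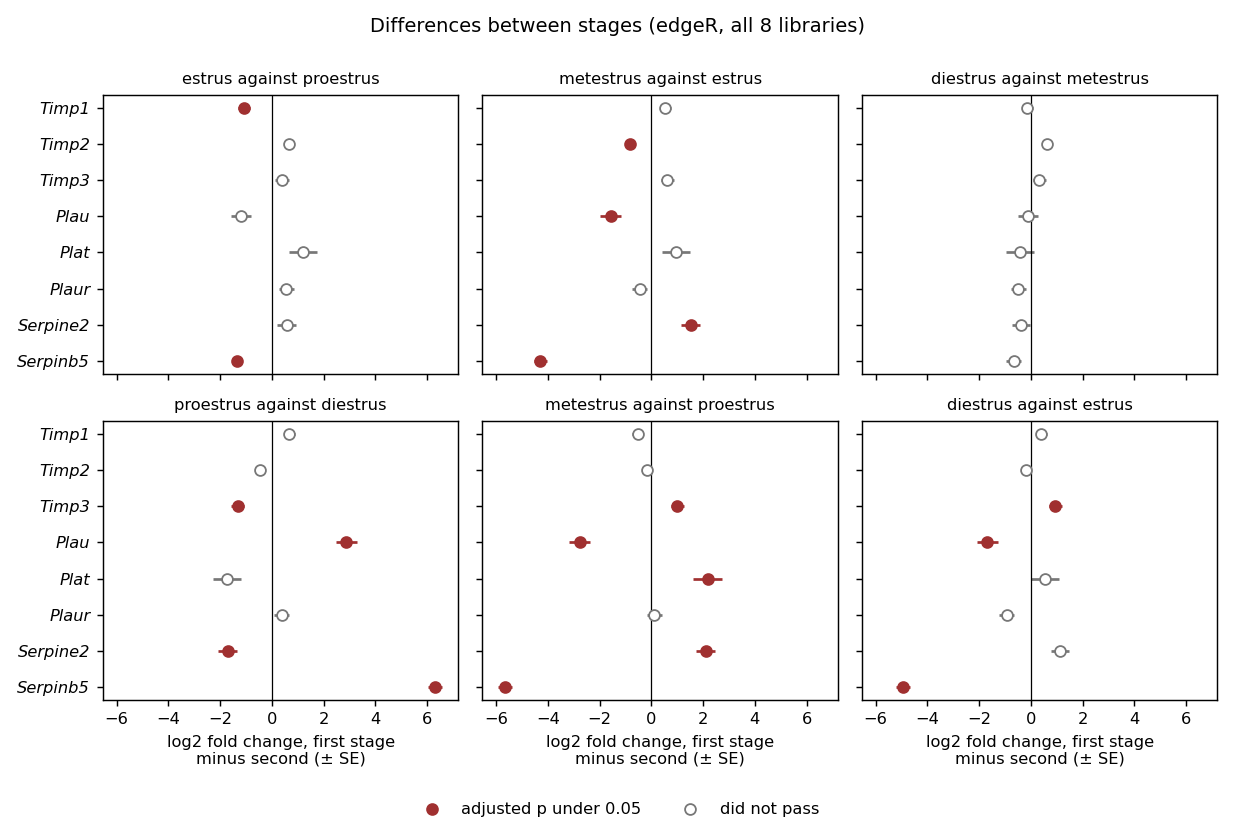
Log2 fold change ± SE of the 8 tested genes in each of the 6 pairs of stages, with filled red points for adjusted p under 0.05 in the edgeR fit. Serpinb5 reaches 6.31 in proestrus against diestrus, and no point is filled in diestrus against metestrus.

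Of the other genes of the plasminogen system, 11 were lower in metestrus than in estrus. The list has 21 genes, of which 19 were tested and 13 changed across the stages, against 39.1% of all tested genes. In metestrus 11 were lower than in estrus (19.5% of all tested genes) and none was higher in edgeR (3 at an unadjusted p under 0.05 and 3 by DESeq2, 1 by limma-voom), with a median log2 change of -1.57 against -0.05 over all tested genes. St14, the epithelial membrane protease matriptase, stood at 547 and 436 CPM in proestrus, 509.5 and 458.5 CPM in estrus, 124 and 114 CPM in metestrus and 141 and 81.2 CPM in diestrus (adjusted p = 0.00311 across the stages), next to the epithelial sums given above. Hpn, the membrane protease hepsin, went from 45.2 and 56.8 CPM in estrus to 14.6 and 13.3 CPM in metestrus (0.00681). Vtn, vitronectin, was highest in estrus at 19.8 and 22.04 CPM (0.00864; 0.0580 without estrus library 2), and Anxa2, a surface receptor for plasminogen and Plat, in proestrus at 1186 and 959 CPM (0.0103; 0.0615 without proestrus library 1). Plasminogen itself, Plg, chosen after its values were seen, had 0.923 and 0.0496 CPM in proestrus, 11.6 and 10.4 CPM in estrus and 0 in the 4 libraries of metestrus and diestrus. Also picked after their values were seen, Serpinf2 had 5.80 and 6.09 CPM in estrus and 0.0893 and 0 CPM in metestrus. F12 (4.55 and 1.55 CPM in estrus) and Cpb2 (1.80 and 1.03 CPM in estrus) were at 0 in both metestrus libraries. A list of 10 liver genes, also chosen after the data were seen, summed to 138 and 1.54 CPM in proestrus, 971.5 and 744 CPM in estrus and 0.179 to 3.25 CPM in metestrus and diestrus. Its part in the levels of Plg, Serpinf2, F12 and Cpb2, in the 11 lower genes and in their list's median was not tested. The 11 lower genes became 5 without estrus library 1 and 4 and 2 without metestrus library 1 and 2, and the 13 became 4 without estrus library 1 and 6 without estrus library 2 or either metestrus library.

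Of the metalloproteinases that Timps bind, 11 rose from proestrus to estrus. The list has 27 genes, of which 22 were tested and 17 changed across the stages, against 39.1% of all tested genes. From proestrus to estrus 11 rose (8.12% of all tested genes did), 2 fell (6.94%) and 9 did not pass, with a median log2 change of 1.10 against 0.01 over all tested genes, and from estrus to metestrus 8 fell and 2 rose (19.5% and 16.7% of all tested genes). Macrophage marker sums were highest in estrus too, as given above. Mmp9, a gelatinase, had 8.72 and 8.73 CPM in proestrus, 68.4 and 65.7 CPM in estrus, 10.1 and 12.2 CPM in metestrus and 14.6 and 22.8 CPM in diestrus (adjusted p = 0.00130 across the stages). Mmp11 reached 1143 and 1377 CPM in estrus against 23.9 to 53.8 CPM elsewhere (0.000606), and Adamts5, an aggrecanase that Timp3 inhibits, 80.9 and 97.5 CPM against 20.9 to 36.2 CPM (0.00239). Mmp2, the substrate of the Mmp14 and Timp2 complex, was highest in diestrus, at 646 and 741 CPM, and lowest in proestrus, at 206 and 224 CPM (0.00185). The 11 rising genes became 6 without proestrus library 1 or 2 and 7 without estrus library 2, the 8 falling genes became 5 and 4 without metestrus library 1 and 2, and the 17 became 11 without proestrus library 1, estrus library 2 or metestrus library 2.

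Among 14 other protease inhibitors 13 were tested and 9 changed across the stages (39.1% of all tested genes). In metestrus 6 were lower than in estrus and 2 higher, beside 19.5% and 16.7% of all tested genes. Serpinh1, the collagen chaperone Hsp47, had 413 and 493 CPM in estrus and 2504 and 1896 CPM in metestrus (adjusted p = 0.00232 across the stages). Tfpi, an inhibitor of tissue factor, was lowest in proestrus at 44.2 and 47.2 CPM and highest in diestrus at 79.98 and 85.2 CPM (0.00812; 0.0511 without proestrus library 1). Pzp, a broad plasma protease inhibitor, had 31.8 and 26.8 CPM in estrus and 0.223 to 4.77 CPM elsewhere (0.0147; 0.0701 and 0.0591 without estrus library 1 and 2), in the libraries with high liver gene sums. Wfdc2, an epithelial secreted protein, stood at 651 to 704 CPM in proestrus and estrus and at 181 to 499.6 CPM in metestrus and diestrus (0.0192; 0.0530 to 0.0948 without proestrus library 1, either estrus library or either metestrus library). The 9 became 2 to 5 when any 1 library outside diestrus was left out. The 6 lower genes became 1 and 3 when estrus library 1 and 2 were left out, and edgeR called 0 when either metestrus library was (with all libraries 7 had an unadjusted p under 0.05, DESeq2 called 7 and limma-voom 6).

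Of 15 clade B serpins other than Serpinb5, 9 were tested and 4 changed across the stages, a share near the 39.1% of all tested genes. Serpinb8 was also high in proestrus and estrus, with 26.1 and 20.7 CPM in proestrus, 20.5 and 21.1 CPM in estrus, 6.88 and 6.80 CPM in metestrus and 9.45 and 9.18 CPM in diestrus (adjusted p = 0.00213 across the stages). Serpinb1a, an inhibitor of neutrophil proteases, was highest in proestrus at 129 and 98.1 CPM (0.00515). Serpinb6b reached 30.2 and 28.2 CPM in estrus (0.00976; 0.0592 and 0.0515 without estrus library 1 and 2), and Serpinb6a 149 and 138.5 CPM (0.0451; 0.0860 to 0.173 when any 1 library outside diestrus was left out). None of the 4 spanned a range as wide as that of Serpinb5. The 4 became 2 without either estrus library and 6 without diestrus library 2.

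The genes whose log2 CPM ran closest to each of the 8 over the 8 libraries were ranked by Pearson r among 11873 protein-coding genes with a mean of at least 5 CPM. For Plau they were Prrg4, Mlph and Cmas (r = 0.991, 0.991 and 0.990), and those of Serpinb5 included Mrpl30 and Ckmt1 (0.996 and 0.996). For Serpine2 they were Tex15, Pde4a and D5Ertd579e (0.981, 0.981 and 0.978), and for Plat Camk1d, Adcy7 and Ntm (0.966, 0.961 and 0.956). For Plaur they were Ubp1, Stk4 and Psd4 (0.957, 0.934 and 0.931). Timp1 was followed most closely by Erp29, Chrdl2 and Agtr2 (0.977, 0.975 and 0.965), Timp2 by Fth1, Zfand3 and Zfp874b (0.989, 0.985 and 0.981) and Timp3 by Spire1, Ric8b and Zfp318 (0.991, 0.984 and 0.970). With 8 libraries in 4 stages and so many genes to choose from, r this high describes these libraries and carries no test.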

How the data were processed

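The files hold counts per gene, which the authors deposited without normalization. The values are whole numbers, and library totals differ. Tools named in the submitters' processing notes are STAR, an aligner, and the read counter featureCounts (Subread), with the build GRCm38 (mm10). Which versions, annotation and strand option they used is not given in the sources used here, so reads of genes that overlap on opposite strands may not be told apart. Per the labels, RNA came from the RNeasy kit and went into TruSeq stranded mRNA libraries.

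Symbols, coordinates and exon lengths were taken from GENCODE M21, which has 52058 of the 52308 identifiers. Stages are those of the labels, and no library was left out. Genes were filtered with filterByExpr by stage, scaled by TMM (factors 0.8975 to 1.111) and fitted with edgeR 4.0.16 in R 4.3.3 (quasi-likelihood, 4 residual and 2.698 prior degrees of freedom, biological coefficient of variation 0.2501). The 4 stages were tested together and in 6 pairs with two-sided F tests, Benjamini-Hochberg adjusted over 18114 genes at 0.05. The SE is the size of the log2 fold change divided by the square root of F. The procedure was also run on simulated counts in which a small set of genes changed, in estrus only. The data differ from this, so that run is no measure of the calls given here.

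Every gene of the group is named. From each other pathway list the 4 genes with the smallest p across the stages are named, and for likeness the 3 largest r of log2 CPM (prior count 2). A gene that this rule takes is not reported here. The genes and lists were chosen with earlier results of these data known, and the lists of liver and uterus genes after the data were seen. Alternatives were DESeq2 1.42.0, its size factors in edgeR, limma-voom (limma 3.58.1), no filter, 1 CPM in 2 libraries, only the 4 libraries of a pair, a block for replicate numbers, and fits that drop 1 library. The same settings were applied to the counts of the other lists and of 4 marker lists after the data were seen.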

Additional observations from a re-analysis of the deposited data

How the results depend on the processing

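With 2 libraries per stage, most calls depend on single libraries. Of the member genes' results under alternatives, 715 kept their direction and side of the threshold, 36 gained a call, 74 lost it and 7 changed sign. The 7 were not called with all libraries, and with 1 library left out their log2 changes ranged from -0.80 to 0.065 for Plaur in metestrus against estrus, from -0.74 to 0.29 for Plau, -1.75 to 0.22 for Plat and -0.99 to 0.0035 for Serpine2 in diestrus against metestrus, and from -0.41 to 0.012 for Timp2 and -0.74 to 1.23 for Plat in diestrus against estrus. The sign turned without estrus library 1 for Plaur, metestrus library 2 or diestrus library 2 for Plau, and diestrus library 1 for Plat and Serpine2 in the first pair with diestrus. It turned without diestrus library 2 for Timp2 and Plat in the second. The cause was not tested. Fits without a library leave a stage with 1 sample, which is assumed to vary like the others.

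With 1 library left out, the count of genes called among the 8 ranged from 2 to 7 across the stages (6 with all), 0 to 5 for estrus against proestrus (2), 1 to 6 for metestrus against estrus (4), 0 to 2 for diestrus against metestrus (0), 2 to 5 for proestrus against diestrus (4), 1 to 5 for metestrus against proestrus (5) and 1 to 4 for diestrus against estrus (3). The number of all genes called also varied widely with the library left out, so these ranges are not particular to the 8. Estrus against proestrus gave 4 by DESeq2, without the filter and with only the libraries of the pair. Of all genes, these settings called 3734, 3126 and 3449, against 2727 in the main fit. Diestrus against metestrus gave 1 by DESeq2. Proestrus against diestrus gave 1 with only the libraries of the pair. Diestrus against estrus gave 5 by DESeq2 and without the filter (5046 and 4548 of all genes), and 1 with only the libraries of the pair. Of all tested genes, 92 were called in diestrus against metestrus, 992 by DESeq2, 451 without the filter, 61 with the replicate block and 0 with only the libraries of the pair. That last setting also gave 1130 in place of 4050 for proestrus against diestrus, 4769 in place of 3067 for metestrus against proestrus and 1939 in place of 4317 for diestrus against estrus.

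The labels give the stages the same replicate numbers but no shared animal or day, and the deviations of same-numbered libraries correlated at -0.0926 to 0.145. With the replicate block the counts were 6 across the stages and 2, 4, 0, 4, 4 and 2 in the pairs in the order above. Over all genes they were 7081 across the stages and 3005, 6646, 61, 4096, 3342 and 4492 in the pairs. Timp3 was no longer called in metestrus against proestrus (adjusted p = 0.0595) or diestrus against estrus (0.0580). A planned comparison of the protein sequences was not run.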
